A study of Homo sapiens with 4 samples.

Results

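A set of 10 genes was followed, 7 matrix metalloproteinases (MMP1, MMP2, MMP3, MMP9, MMP10, MMP14 and MMP15) and 3 tissue inhibitors of metalloproteinases (TIMP1, TIMP2 and TIMP3), out of 62696 rows in each count table. They were found by gene symbol, and each matched 1 row in all 4 tables. The set was chosen by measured values: MMP1 was without a count in the empty vector control and had counts in every library of the knockdown group. That same contrast therefore cannot test the set, and the differences from the empty vector control are given as a description without p-values. The study sequenced RNA of NT2 cells, also called NTERA-2, a human embryonal carcinoma line that resembles early embryonic cells and can form neurons. It compared a knockdown of HYDIN2, a partial copy of the motile cilia gene HYDIN, with an empty vector. The empty vector group, labelled wild type, had 1 library and the group labelled HYDIN2 knockdown had 3, called labelled knockdown replicates 1, 2 and 3 here. The labels do not say how the knockdown was made, or whether its replicates came from separate cultures or clones.

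Matrix metalloproteinases are zinc-dependent enzymes that cut proteins of the extracellular matrix. Most are made as inactive precursors, and a cysteine in the propeptide holds the catalytic zinc until the propeptide is removed. TIMPs bind the active enzymes and block them, and TIMP2 also takes part in the activation of pro-MMP2 by MMP14 at the cell surface. MMP1, MMP3 and MMP10 lie close together in a cluster of metalloproteinase genes on the long arm of chromosome 11, and they are known as genes induced by growth factors and cytokines.

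Some facts of the libraries bear on every direction given here. HYDIN2 itself had 12 counts in the empty vector control and 150, 112 and 11 counts in labelled knockdown replicates 1, 2 and 3. With the scaling described below its log2 differences from the empty vector control were 2.17, 1.82 and -0.46. The targeted gene was thus higher, not lower, in replicates 1 and 2. At 11 counts against 12 it did not check the label of replicate 3 either. HYDIN, the gene it partly copies, had 135 counts against 540, 481 and 133, with log2 differences of 0.62, 0.52 and -0.40. Whether reads of HYDIN were counted for HYDIN2 was not tested, so the level of HYDIN2 carries that uncertainty. The count columns are also headed with a LacZ control and GKAP_KIF27 sets, although the sample labels name HYDIN2. Library totals ran from 25181737 to 62904698 counts. Of 8 markers of embryonal carcinoma cells fixed for the label, all 8 passed the level filter described below, and their summed level was 5287 CPM (counts relative to the library total after scaling by the trimmed mean of M-values) in the empty vector control and 5897, 6043 and 3471 CPM in replicates 1, 2 and 3. LIN28A alone made up 2844 CPM of this sum, against 3513, 3620 and 1912 CPM. Only DNMT3B, a DNA methyltransferase of embryonic cells, was at least 2-fold lower in all 3, at 795 CPM against 340, 350 and 349 CPM. The other 7 markers were neither 2-fold higher nor 2-fold lower in all 3, and their directions were mixed. SALL4 was higher in all 3, NANOG and LIN28B were higher in replicates 1 and 2 alone, and POU5F1 and TDGF1 were lower in all 3. Markers of fibroblasts, which are a common source of MMP1 and MMP3, summed to 511 CPM against 654, 642 and 428 CPM. THY1 alone made up 362 CPM of this sum, against 382, 394 and 210 CPM. Of the 9 fibroblast markers 7 passed the filter and 1, PDGFRB, was at least 2-fold higher in all 3. COL3A1 was lower in replicates 1 and 2 but not in replicate 3, at 4.04 CPM against 0.739, 0.570 and 6.21 CPM. COL1A2 went the other way in replicates 1 and 2, at 11.4 CPM against 35.1, 36.9 and 11.7 CPM. COL1A1 and PDGFRA were higher in all 3 but under 2-fold, and LUM was higher in replicates 1 and 2 and lower in replicate 3. DCN and FAP had 0 counts in the empty vector control and no more than 3 elsewhere. Macrophage and neutrophil markers, with 1 of 7 past the filter, summed to between 1.38 and 1.90 CPM. Keratinocyte markers summed to between 0.208 and 0.469 CPM, with none of 3 past the level filter. Endothelial markers summed to 75.4 CPM against 178, 174 and 134 CPM, mostly from TEK. Of these 4 markers 3 passed the filter, and 0 were at least 2-fold higher or lower in all 3 libraries. TEK, KDR and CDH5 were higher in all 3. PECAM1, under the filter, was lower in all 3, at 1.17 CPM against 0.642, 0.570 and 0.448 CPM. The part of these markers in the results was not tested.

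MMP1 and MMP10 lay at least 2-fold above the empty vector control in each of the 3 labelled knockdown libraries, and no member lay 2-fold below it in all 3. A gene was counted under this rule when its log2 CPM (prior count 2) differed by at least 1 in the same direction in every labelled knockdown library. The rule was applied to genes whose 2 group means averaged at least 1 CPM. Of the 10 members, 9 passed that filter and MMP3 did not. MMP1 and MMP10 were both under 1 CPM in the empty vector control and passed only through the labelled knockdown group, so they had to differ, and the counts of 2 higher and 0 lower among 9 are no support for a property of the set. Among all 15880 genes that passed, 3.65% were higher and 2.72% were lower (580 and 432 genes), and total-count scaling gave 734 and 312. Without replicate 3 the shares were 9.76% and 5.36% (1542 and 846 genes), and with trends on transcript length and GC content removed they were 2.96% and 1.45%. Nothing about the members is read from these shares. In single libraries, 2 of the 9 members (MMP1 and MMP10) were at least 2-fold higher in each of replicates 1, 2 and 3, beside 11.3%, 10.4% and 11.3% of all tested genes. At any size, 5 of the 9 (MMP1, MMP2, MMP10, MMP14 and MMP15) were above the empty vector control in all 3, beside 30.1% of all genes. The members' median difference was 0.24 on the log2 scale, beside -0.02 for all these genes. Their medians in replicates 1, 2 and 3 were 0.15, 0.18 and 0.59, beside 0.03, 0.05 and -0.15 for all genes. MMP1 was above the empty vector control by the choice of the set, and MMP10 passed the filter only through the labelled knockdown group. The single-library counts, the count at any size and the medians are therefore no support for a property of the set either.

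**Figure D1:**
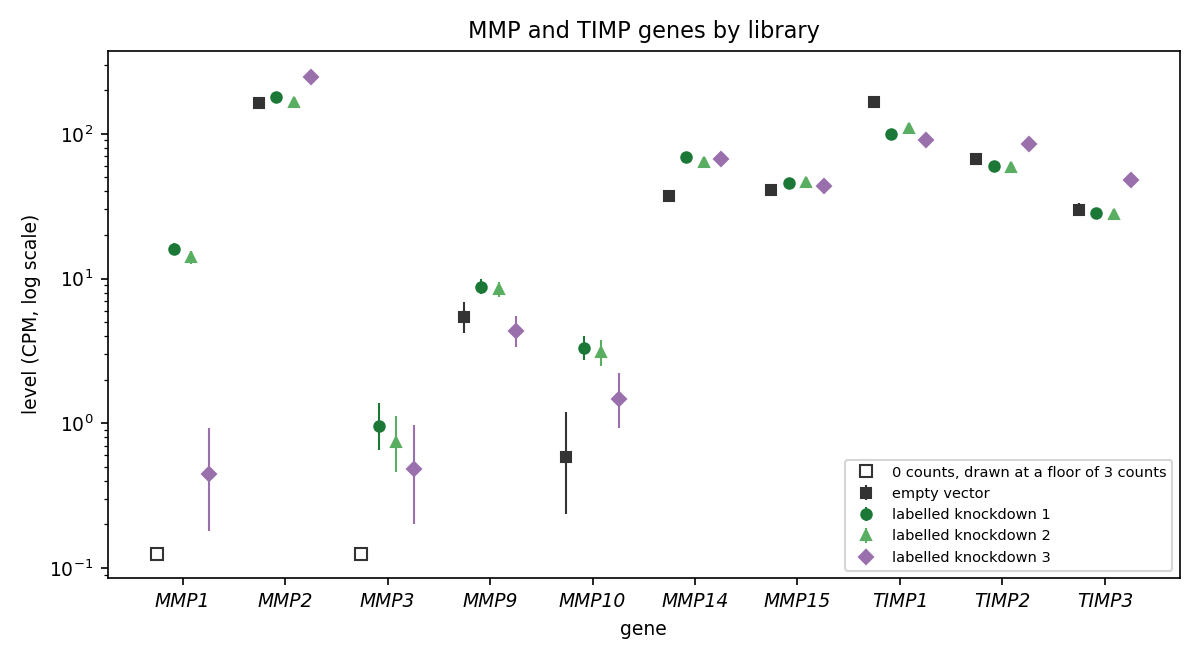
Level of each member in each library, in CPM on a log axis, with 95% counting intervals as bars; open squares mark 0 counts in the empty vector control, drawn at a floor of 3 counts. MMP1 spans from 0 counts to 16.0 CPM, while MMP15 stays between 41.1 and 46.6 CPM.

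**Figure D2:**
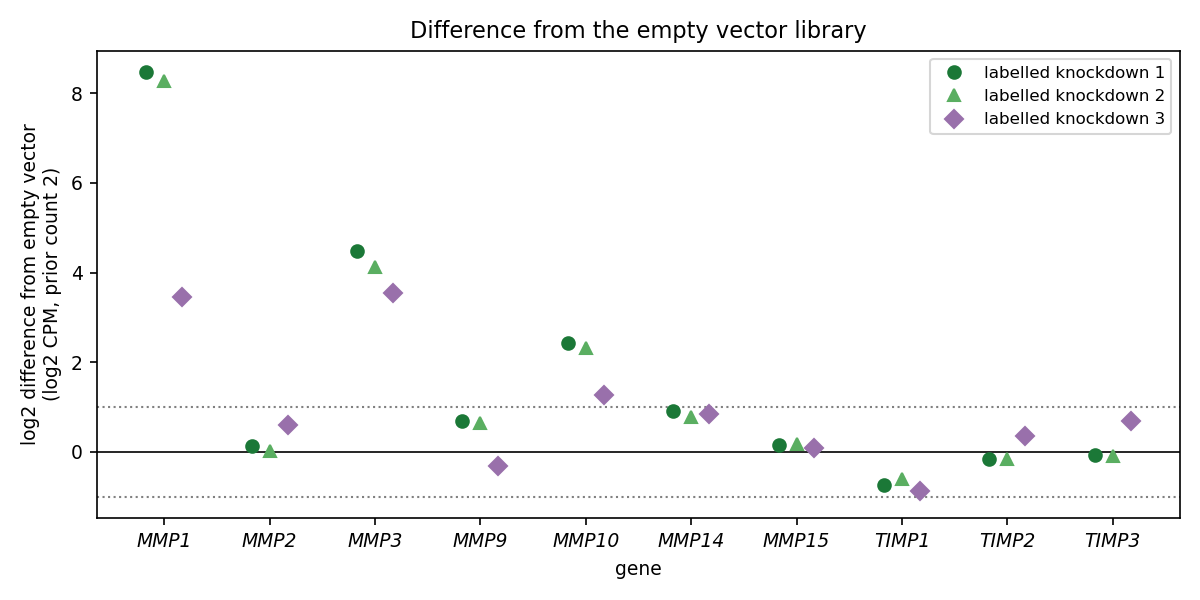
Log2 difference of each labelled knockdown library from the empty vector control for each member (log2 CPM, prior count 2); dotted lines mark a 2-fold difference. MMP1, MMP3 and MMP10 lie above the upper line in all 3 libraries, and TIMP1 lies below 0 in all 3. The heights for MMP1 and MMP3 depend on the prior count, since both had 0 counts in the empty vector control.

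MMP1, interstitial collagenase, cuts the triple helix of fibrillar collagens. It lies on the minus strand of chromosome 11 at 102789920 to 102798160 (ENSG00000196611.6; GRCh38, GENCODE 29). It had 0 counts in the empty vector control and 997, 835 and 14 counts in labelled knockdown replicates 1, 2 and 3, or 16.0, 13.99 and 0.448 CPM. The groups did not overlap, but replicate 3 was far below the other labelled knockdown replicates. The observed level of MMP1 was 128, 112 and 3.59 times a floor of 3 counts (0.125 CPM) in the empty vector control, in replicates 1, 2 and 3. With a floor of 6 counts, for the case that both reads of a pair were counted, these values were 64.1, 56.0 and 1.79. They leave out counting error in the labelled knockdown libraries. With counting error allowed on both sides, the lower 95% limits of the ratio were 51.9, 45.3 and 1.11 in replicates 1, 2 and 3. The rule that picked the set, no count in the empty vector control and at least 1 in each other library, was met by 2712 of all 62696 rows (4.33%), and by MMP1 and MMP3 among the members. Only 12 of those 2712 rows averaged at least 1 CPM in the labelled knockdown libraries, and 2 of them, PAX6 and MMP1, reached the mean of MMP1, 10.1 ± 8.46 CPM (SD, n = 3). MMP10 did not meet the rule, with 14 counts in the empty vector control. The lowest labelled knockdown counts of MMP1 and MMP3 were 14 and 15, both in replicate 3.

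MMP3, stromelysin 1, cuts proteoglycans, fibronectin and basement membrane proteins and can activate other pro-MMPs. It lies on the minus strand of chromosome 11 at 102835801 to 102843803 (ENSG00000149968.12). It had 0 counts in the empty vector control and 60, 44 and 15 counts in replicates 1, 2 and 3, or 0.964, 0.737 and 0.480 CPM. All 3 values were above the floor of 3 counts, though all were under 1 CPM. The observed level of MMP3 was 7.71, 5.90 and 3.84 times that floor in replicates 1, 2 and 3. With a floor of 6 counts these values were 3.86, 2.95 and 1.92. They leave out counting error in the labelled knockdown libraries. With counting error allowed on both sides, the lower 95% limits of the ratio to the empty vector control were 2.947, 2.203 and 1.21. Differences between the labelled knockdown replicates were within counting error: the ratio of replicate 3 to replicate 1 was 0.498, with a 95% exact binomial interval from 0.191 to 1.13. Such intervals use counts divided by 2, since 65.2% to 68.0% of nonzero counts in a library were even, and they cover counting error only. Counts as deposited gave a narrower interval, whose upper end lay below 1.

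MMP10, stromelysin 2, is close in sequence to MMP3 and cuts similar substrates. It lies on the minus strand of chromosome 11 at 102770503 to 102780628 (ENSG00000166670.10). It had 14 counts in the empty vector control and 207, 184 and 46 counts in replicates 1, 2 and 3, or 0.583 CPM against 3.32, 3.08 and 1.47 CPM. The empty vector control was the lowest of the 4, with replicate 3 between it and the other replicates. The ratios to the empty vector control were 5.70 (2.67 to 14.5), 5.29 (2.46 to 13.5) and 2.52 (1.05 to 6.97) in replicates 1, 2 and 3. The mean log2 difference was 2.00 ± 0.64 (SD, n = 3). MMP3 and MMP10 are similar enough that some reads may be assigned to either gene, so both levels carry that uncertainty.

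Promoter sequence from RefSeq (GRCh38.p14) was at hand for 5 of the 10 members: MMP10, MMP14, MMP15, TIMP1 and TIMP3. The 250 bases before the RefSeq start are shown for MMP10 and MMP14, a pair of members above the empty vector control in all 3 labelled knockdown libraries, because their windows differ in composition. Capitals mark matches to the AP-1 motif (TGANTCA), the TATA motif (TATAAA) and the GC box (GGGCGG), each searched on both strands, and no 2 of these matches overlap in the windows printed. The MMP10 window is chr11:102780629-102780878 on the minus strand and the MMP14 window is chr14:22836335-22836584 on the plus strand, where the RefSeq start lies inside the GENCODE 29 gene.
MMP10: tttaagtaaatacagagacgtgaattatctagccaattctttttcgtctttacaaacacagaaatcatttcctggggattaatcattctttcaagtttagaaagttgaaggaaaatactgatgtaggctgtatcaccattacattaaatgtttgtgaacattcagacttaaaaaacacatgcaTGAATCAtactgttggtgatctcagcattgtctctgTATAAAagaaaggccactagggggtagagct
MMP14: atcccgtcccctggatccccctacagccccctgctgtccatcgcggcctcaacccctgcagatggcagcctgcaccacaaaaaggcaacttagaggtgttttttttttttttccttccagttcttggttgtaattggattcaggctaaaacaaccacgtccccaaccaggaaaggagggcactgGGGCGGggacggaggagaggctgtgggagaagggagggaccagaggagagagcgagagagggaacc

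The MMP10 window held 1 AP-1 match that begins 67 bases before the start, TGAATCA, and 1 TATA match that begins 31 bases before it, and no GC box. Of 35116 such windows, 6.57% held an AP-1 match, 10.7% a TATA match and 42.6% a GC box. The MMP14 window held 1 GC box and neither of the other motifs. MMP15, TIMP1 and TIMP3 had 5, 2 and 5 GC boxes in their windows and no match to the other 2 motifs. The GC content was 34.4% for MMP10 and 56.8% for MMP14, and 74.8%, 64.8% and 72.4% for MMP15, TIMP1 and TIMP3, with a median of 58.0% over all windows. These matches describe letters, and nothing on binding follows from them.

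The neighbours of MMP1 did not all follow it. WTAPP1, a transcribed pseudogene on the plus strand, overlaps MMP1, MMP3 and MMP10 and shares 150 exonic bases with MMP1, 32 with MMP3 and none with MMP10. It had 38 counts in the empty vector control and 378, 360 and 96 counts in labelled knockdown replicates 1, 2 and 3, with log2 differences of 1.91, 1.90 and 0.94. WTAPP1 thus lay above the empty vector control in all 3 and missed the 2-fold rule in replicate 3. The strand setting of the counting is not given in the sources used here, so reads of WTAPP1 and of the 3 enzymes cannot be told apart where their exons overlap. Among the other MMP genes of the cluster, MMP7, matrilysin, had 16 counts against 138, 136 and 10, with log2 differences of 1.67, 1.71 and -0.96. MMP13, collagenase 3, had 6 counts against 27, 38 and 2. MMP20, enamelysin, had 20 counts against 12, 6 and 12, which is under the level filter. MMP12, macrophage elastase, and MMP27 had no more than 5 counts in any library, and MMP8, neutrophil collagenase, had 0 in all 4. BIRC3, an inhibitor of apoptosis whose start lies 481 kb from that of MMP1, had log2 differences of 2.19, 1.95 and -0.54. DYNC2H1, a dynein of intraflagellar transport on the other side at 311 kb, had 1.35, 1.40 and 1.30 and passed the rule.

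**Figure D3:**
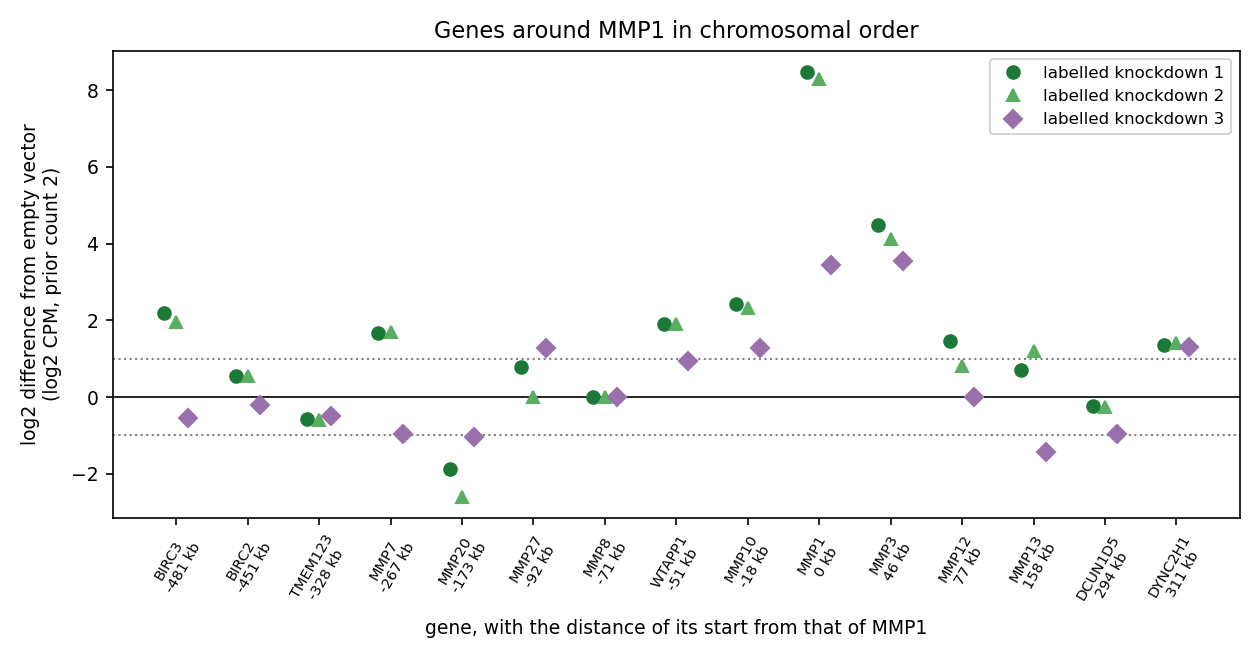
Log2 difference from the empty vector control (log2 CPM, prior count 2) for WTAPP1 and the protein-coding genes within 500 kb of MMP1, in chromosomal order with the distance of each start from that of MMP1; dotted lines mark a 2-fold difference. MMP10, MMP1, MMP3 and DYNC2H1 lie above the upper line in all 3 labelled knockdown libraries. MMP20 lies below the lower line in all 3 but has 20 counts or fewer in every library, and MMP8, MMP12 and MMP27 have 5 or fewer.

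The gelatinases MMP2 and MMP9 differed between the labelled knockdown replicates in opposite directions. MMP2, gelatinase A, cuts denatured collagen and basement membrane collagen and lies on the plus strand of chromosome 16 at 55389700 to 55506691 (ENSG00000087245.13). It had 164 CPM in the empty vector control and 179, 165 and 248 CPM in replicates 1, 2 and 3. Replicates 1 and 2 lay close to the empty vector control and replicate 3 above all the others. The ratio to the empty vector control was 1.51 (1.43 to 1.60) in replicate 3 and 1.01 (0.955 to 1.06) in replicate 2. Its log2 difference averaged 0.24 ± 0.31 (SD, n = 3), less than the spread between replicates, and 0.06 without replicate 3.

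MMP9, gelatinase B, an enzyme of leukocytes and of many tumours, lies on the plus strand of chromosome 20 at 46008908 to 46016561 (ENSG00000100985.7). It had 130 counts in the empty vector control and 546, 503 and 136 in replicates 1, 2 and 3, or 5.42 CPM against 8.77, 8.43 and 4.35 CPM. The groups overlapped, with replicate 3 below the empty vector control. The ratios were 1.62 (1.23 to 2.16) and 1.56 (1.18 to 2.08) in replicates 1 and 2, and 0.804 (0.564 to 1.15) in replicate 3, which is within counting error. The log2 difference averaged 0.34 ± 0.56 (SD, n = 3), again less than the spread; it was 0.16 without replicate 1, 0.19 without replicate 2 and 0.66 without replicate 3. MMP9 shares 430 exonic bases with SLC12A5-AS1 on the other strand, which had 15 counts or fewer in every library.

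Of the membrane-bound enzymes, MMP14 was higher by a like amount in all 3 labelled knockdown libraries and MMP15 was nearly level. MMP14, also called MT1-MMP, is anchored in the membrane, cuts collagen around the cell and activates pro-MMP2. It lies on the plus strand of chromosome 14 at 22836557 to 22849027 (ENSG00000157227.14). It had 37.1 CPM in the empty vector control and 69.6, 63.5 and 67.0 CPM in replicates 1, 2 and 3, so the groups did not overlap and the labelled knockdown replicates lay close together. The ratios were 1.88 (1.69 to 2.08), 1.71 (1.54 to 1.90) and 1.81 (1.62 to 2.02). Its mean log2 difference of 0.84 ± 0.07 (SD, n = 3) was larger than the spread between these replicates. All 3 differences share a single empty vector control, so that spread holds no variation of the control. MMP14 was under 2-fold higher in each replicate and did not pass the rule.

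MMP15, MT2-MMP, is a membrane-type enzyme related to MMP14, on chromosome 16 at 58025566 to 58046901, plus strand (ENSG00000102996.5). It had 41.1 CPM in the empty vector control and 45.4, 46.6 and 43.6 CPM in replicates 1, 2 and 3. The ratios were 1.11 (0.998 to 1.23), 1.13 (1.02 to 1.26) and 1.06 (0.943 to 1.19). With these intervals a difference beyond counting error was detectable in replicate 2, and on counts as deposited also in replicate 1, at 1.03 to 1.19.

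TIMP1 was lower in all 3 labelled knockdown libraries, and TIMP2 and TIMP3 were higher in replicate 3 alone. TIMP1 blocks most secreted metalloproteinases and lies on the plus strand of chromosome X at 47582313 to 47586789 (ENSG00000102265.12). It had 166 CPM in the empty vector control and 100.0, 109 and 91.0 CPM in replicates 1, 2 and 3. The empty vector control was the highest of the 4 and the groups did not overlap. The ratios were 0.602 (0.569 to 0.638), 0.659 (0.623 to 0.697) and 0.548 (0.512 to 0.587), all under 2-fold in size. The mean log2 difference of -0.73 ± 0.13 (SD, n = 3) depended on the processing. Removal of smooth trends on length and GC content together brought the mean to -0.25, with -0.35, -0.31 and -0.08 in replicates 1, 2 and 3.

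TIMP2, the inhibitor that binds pro-MMP2, lies on the minus strand of chromosome 17 at 78852977 to 78925387 (ENSG00000035862.12). It had 66.5 CPM in the empty vector control and 59.6, 59.3 and 85.4 CPM in replicates 1, 2 and 3. Replicates 1 and 2 lay below the empty vector control, at ratios of 0.895 (0.824 to 0.974) and 0.892 (0.820 to 0.971), and replicate 3 lay above it, at 1.28 (1.18 to 1.40). The mean log2 difference was 0.01 ± 0.30 (SD, n = 3), and it was -0.16 without replicate 3.

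TIMP3 binds to the extracellular matrix and also inhibits ADAM and ADAMTS proteases. It lies on the plus strand of chromosome 22 at 32801701 to 32863043 (ENSG00000100234.12). It had 29.9 CPM in the empty vector control and 28.5, 27.8 and 48.2 CPM in replicates 1, 2 and 3. The ratios to the empty vector control were within counting error in replicates 1 and 2 and 1.61 (1.42 to 1.83) in replicate 3. The mean log2 difference was 0.17 ± 0.45 (SD, n = 3), and it was -0.09 without replicate 3.

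TIMP1 and TIMP3 each lie inside a synapsin gene on the other strand, with no shared exonic base. SYN1, a protein of synaptic vesicles and the host of TIMP1, had 27.7 CPM in the empty vector control and 47.3, 45.2 and 31.8 CPM in replicates 1, 2 and 3, above it where TIMP1 was below. SYN3, the host of TIMP3, had 11.4 CPM against 11.6, 11.6 and 3.65 CPM, and was lowest in replicate 3, where TIMP3 was highest. Annotated genes overlapping MMP2 (MMP2-AS1 and ENSG00000279030) and TIMP2 (CEP295NL, ENSG00000267491 and ENSG00000279339) had 22 counts or fewer in every library.

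Levels of different members were compared per kilobase of the longest annotated transcript. In the mean of the labelled knockdown libraries the order was TIMP1 at 91.5 ± 8.44 CPM per kb, MMP2 at 52.8 ± 11.9, TIMP2 at 18.6 ± 4.10, MMP14 at 17.9 ± 0.818, MMP15 at 10.6 ± 0.358, TIMP3 at 7.57 ± 2.51, MMP1 at 5.15 ± 4.30, MMP9 at 3.07 ± 1.05, MMP10 at 1.49 ± 0.573 and MMP3 at 0.361 ± 0.120 CPM per kb (SD, n = 3). The ranges of the labelled knockdown replicates did not overlap between TIMP1 and MMP2, MMP2 and TIMP2, MMP14 and MMP15, or MMP10 and MMP3. The other neighbours in this order, from TIMP2 and MMP14 to MMP9 and MMP10, overlapped in their ranges. In the empty vector control the first 6 genes stood in the same order, from 152 CPM per kb for TIMP1 to 6.49 for TIMP3, followed by MMP9 at 2.32 and MMP10 at 0.332. MMP1 ranked the sixth in replicates 1 and 2, above TIMP3, and the last of the 10 in replicate 3. With the union of all exons as length, 8 of 10 members kept their rank, and TIMP2 and MMP14 changed places.

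The 7 MMP members summed to 66.2 CPM per kb in the empty vector control and to 91.4, 85.0 and 97.8 CPM per kb in labelled knockdown replicates 1, 2 and 3. The 3 TIMP members summed to 176 CPM per kb against 114, 122 and 117 CPM per kb. The ratio of summed MMP to summed TIMP level was 0.375 in the empty vector control and 0.803, 0.695 and 0.836 in the replicates, a mean of 0.778 ± 0.0734 (SD, n = 3). The empty vector control lay below all 3. TIMP1 made up 86.0% of the TIMP sum in the empty vector control and 80.2%, 81.8% and 71.1% in the replicates. MMP2 made up 66.4% of the MMP sum in the empty vector control and 52.3%, 52.0% and 67.9% in the replicates, and MMP1 took 8.89%, 8.35% and 0.233%. After removal of the length and GC trends the ratio was 0.682, 0.619 and 0.612 in replicates 1, 2 and 3, still above the 0.375 of the empty vector control.

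**Figure D4:**
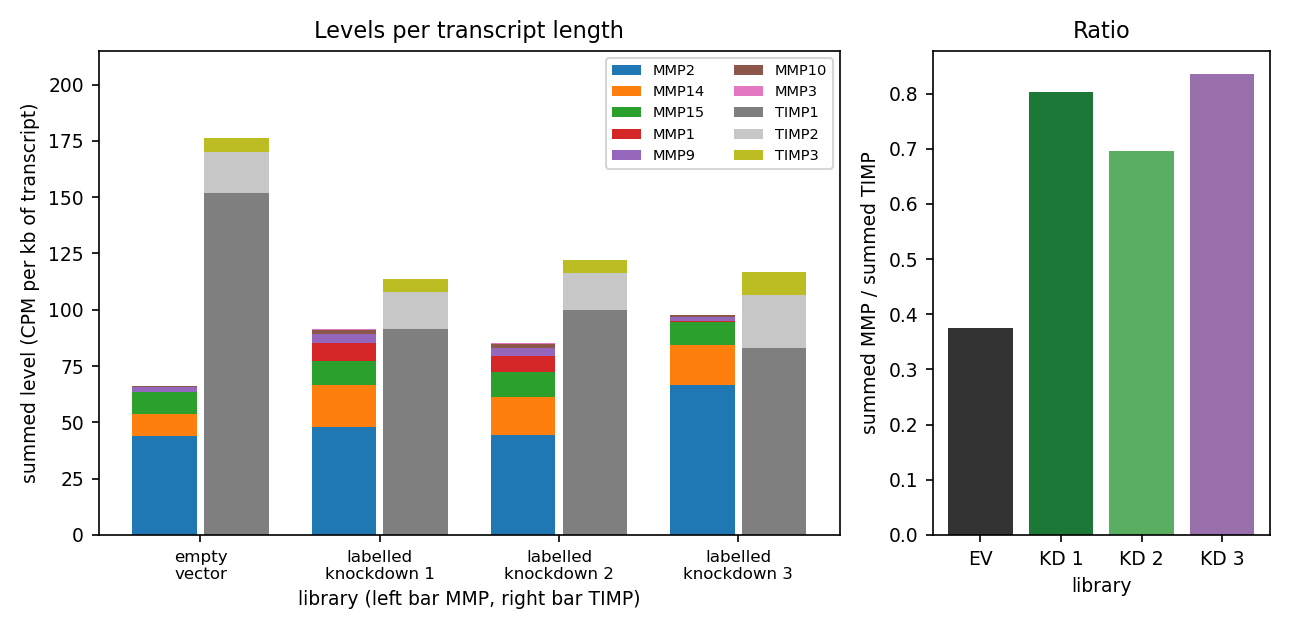
Left, levels in CPM per kb of the longest transcript, stacked over the 7 MMP members (left bar) and the 3 TIMP members (right bar) of each library; right, the ratio of both sums, with EV for empty vector and KD for labelled knockdown. The TIMP bar is tallest in the empty vector control, at 176 CPM per kb, and the ratio is lowest there, at 0.375.

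The labelled knockdown replicates did not form one group for these genes. Replicates 1 and 2 were near each other in every member: their log2 difference ran from -0.37 for MMP3 to 0.13 for TIMP1. Replicate 3 was at least 2-fold below both of them in MMP1 and MMP10, beside 13% of 16001 genes. These were 2 of the 9 members that averaged at least 1 CPM in these libraries. None of the 9 was at least 2-fold above both, beside 6.79%. MMP1 was under 1 CPM in replicate 3, at 0.448 CPM, and passed this filter only through replicates 1 and 2. The count of 2 among 9 is thus no support for a property of the set. MMP1 in replicate 3 was 0.0280 times its level in replicate 1 (0.0112 to 0.0581). MMP9 in replicate 3 was 0.496 times its level in replicate 1 (0.375 to 0.650) and 0.517 times that in replicate 2 (0.389 to 0.678). TIMP3 was 1.69 times (1.53 to 1.87) its level in replicate 1, TIMP2 1.43 times (1.34 to 1.54) and MMP2 1.39 times (1.33 to 1.45). MMP14 and MMP15 in replicate 3 were within counting error of replicate 1. These intervals compare libraries, not conditions.

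No gene among the other MMP and TIMP genes passed the 2-fold rule, but several were far from the empty vector control in replicates 1 and 2. Of 17 such genes, 9 passed the level filter, with a median log2 difference of 0.42, beside -0.02 for all genes. MMP19, a widely expressed secreted enzyme, had 2.83 CPM in the empty vector control and 13.8, 12.3 and 4.10 CPM in replicates 1, 2 and 3. MMP24, the membrane enzyme MT5-MMP of the nervous system, had 31.2 CPM against 105, 100.4 and 54.0 CPM. MMP17, the membrane enzyme MT4-MMP, had 20.1 CPM against 7.07, 7.29 and 19.0 CPM, so it was low in replicates 1 and 2 and not in replicate 3. MMP16, the membrane enzyme MT3-MMP, had 10.7 CPM against 10.8, 10.3 and 26.3 CPM, high in replicate 3 alone. TIMP4 had 32.6 CPM against 50.03, 56.6 and 24.3 CPM. These 5 genes were named after their values were seen. Without replicate 3, 4 of the 9 genes were at least 2-fold higher (MMP7, MMP19, MMP23B and MMP24), beside 9.76% of all genes, and 1 was lower (MMP17), beside 5.36%. MMP7 and MMP23B were under 1 CPM in the empty vector control, at 0.667 and 0.750 CPM. They passed the level filter only through the labelled knockdown group, so these counts are no support for a property of the list. With all 3 replicates kept and the length and GC trends removed, MMP23B alone passed the rule as higher, beside 2.96% of all genes.

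Among 16 tested genes of activation, inhibition and clearance, 3 were at least 2-fold higher in all 3 labelled knockdown libraries and none was lower, beside 3.65% and 2.72% of all genes. The median log2 difference of the list was 0.62. LRP1, an endocytic receptor that clears MMPs and TIMPs, had 128 CPM in the empty vector control and 449, 431 and 498 CPM in replicates 1, 2 and 3. THBS1, thrombospondin 1, had 43.8 CPM against 272, 222 and 158 CPM, and THBS2, its relative that is also bound by LRP1, had 5.79 CPM against 30.6, 26.9 and 12.5 CPM. RECK, a membrane inhibitor of MMPs, lay close to the empty vector control, at 18.8 CPM against 15.7, 17.7 and 19.7 CPM. Without replicate 3, 7 of 16 were higher, beside 9.76% of all genes. These 7 include SERPINB2, which was under 1 CPM in the empty vector control. SERPINB2 passed the level filter only through the labelled knockdown group, so the count of 7 is no support for a property of the list. With the trends removed 2 were higher, LRP1 and THBS1, beside 2.96%.

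Of 12 related proteases, ADAM12, ADAMTS5 and ADAMTS9 were higher in all 3 and ADAM8 was lower, again beside 3.65% and 2.72% of all genes, with a list median of 0.21. ADAMTS5, an aggrecanase inhibited by TIMP3, had 2.75 CPM against 17.2, 14.8 and 6.02 CPM. ADAMTS9 had 31.3 CPM against 76.6, 67.3 and 176 CPM, and ADAM12 had 0.916 CPM against 2.698, 2.61 and 2.69 CPM. ADAM8 had 1.58 CPM against 0.739, 0.503 and 0.640 CPM. ADAM12 was under 1 CPM in the empty vector control, and ADAM8 was under 1 CPM in all 3 labelled knockdown libraries. Each passed the level filter only through the group where it was high, so these counts are no support for a property of the list. None of the 4 named genes passed the rule once the length and GC trends were removed.

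Transcription factors known to act at MMP promoters had a median log2 difference of 0.08 over 17 genes, with FOSL2 and RUNX2 at least 2-fold higher in all 3 (3.65% of all genes) and none lower (2.72%). FOSL2, an AP-1 subunit, had 13.6 CPM against 37.4, 33.9 and 52.0 CPM, and RUNX2 had 4.04 CPM against 21.3, 19.8 and 12.1 CPM. Both passed the rule with the trends removed as well. FOS and FOSL1, other AP-1 subunits, lay at mean log2 differences of -0.29 and -0.23, and JUN had 1.45, 1.30 and 0.31 in replicates 1, 2 and 3. Without replicate 3, JUN and CEBPB joined the higher genes, 4 of 16 beside 9.76% of all genes. Of 9 tested ligands and receptors that induce MMPs, TGFB2 was higher in all 3, at 8.46 CPM against 19.0, 18.9 and 21.5 CPM, and none was lower, beside 3.65% and 2.72% of all genes. The median of this list was 0.57. TGFB2 did not pass with the trends removed, and without replicate 3 there were 3 such genes, EGFR, OSMR and TGFB2, beside 9.76% of all genes.

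**Figure D5:**
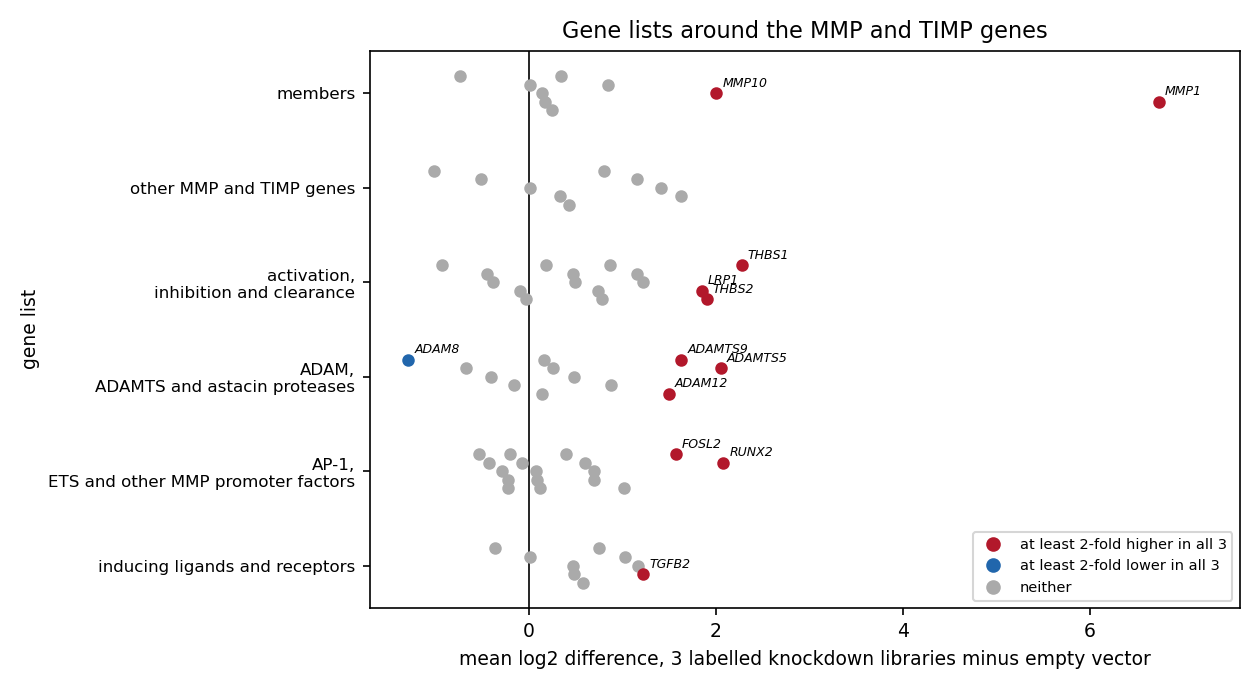
Mean log2 difference of the 3 labelled knockdown libraries from the empty vector control for each gene that passed the level filter, by gene list; red marks genes at least 2-fold higher in all 3 libraries, blue those at least 2-fold lower and grey the rest. MMP1 lies farthest to the right at 6.73, and 9 genes outside the members are red.

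The genes most like MMP1 in their 3 differences from the empty vector control were named by the smallest root mean square distance on the log2 scale over these 3 values. PAX6, a transcription factor of eye and brain development, was the nearest at 1.502, with 0 counts in the empty vector control and 957, 784 and 92 in replicates 1, 2 and 3. SLITRK6, a neuronal membrane protein, followed at 1.97 with 0 counts against 192, 175 and 6. SCN3B, a sodium channel subunit, stood at 2.93, MYOCD, a coactivator of smooth muscle genes, at 3.58 and TNXB, a matrix glycoprotein, at 3.59. The distances depend on the prior count for genes at 0, and 3 values are too few to speak of a shared pattern.

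A test across all genes gave no calls to read the members against. edgeR's quasi-likelihood test of the labelled knockdown group against the single control called 0 of 26029 genes (0%) after adjustment by Benjamini-Hochberg, and 3023 had an unadjusted p under 0.05. The Wald test of DESeq2 called 253 genes. Without labelled knockdown replicate 3 edgeR called 11177 of 25016 genes, with the spread taken from replicates 1 and 2 alone. Because a single empty vector control was sequenced, the control side has no replicate check.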

How the data were processed

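RNA of 4 NT2 libraries was depleted of ribosomal RNA and sequenced as strand-specific libraries, per the labels' protocols. For every library the authors deposited its raw gene counts. STAR 2.7.11b, featureCounts 2.0.6 and DESeq2 are named with hg38 and GRCh38 in the submitters' processing notes; the annotation release and strand setting are not given in the sources used here. The series record gave the sample of each file, and sample titles gave the groups.

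Counts were scaled by TMM factors (edgeR 4.0.16, R 4.3.3, genes kept by filterByExpr) to CPM and log2 CPM (prior count 2). Intervals are 95%, exact Poisson or exact binomial (Clopper-Pearson), on counts divided by 2. P-values would measure only the spread between samples, which may be technical. DESeq2 1.42.0 was an alternative. Coordinates, lengths and GC content came from GENCODE 29, which matched 58269 of 62696 identifiers. Trends were removed by lowess with a span of 0.3 (statsmodels 0.14.6). The 2-fold rule and edgeR's test were tested on simulated data.

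The members and gene lists were chosen with earlier results of these data known. Genes named are the members, list genes past the 2-fold rule, genes that overlap members, MMP genes near MMP1 and the 5 genes most like MMP1; others were named after their values were seen.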

Additional observations from a re-analysis of the deposited data

How the results depend on the processing

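No paired analysis was possible because the control is a single library without a number to share. MMP1 and MMP10 passed the 2-fold rule under DESeq2 size factors, total counts, prior counts of 0.5 and 5, trend removal, and without each labelled knockdown replicate. A minimum mean CPM of 5 left 1 higher member, MMP1, and a minimum of 0.1 added MMP3. With a 1.5-fold rule MMP14 joined the higher members, and 1 member, TIMP1, was lower. Over all genes, the 1.5-fold rule gave 1590 higher and 1526 lower genes, a minimum of 0.1 gave 1605 and 1035, a minimum of 5 gave 377 and 254, and trend removal gave 224 lower. Without 1 labelled knockdown replicate there were 615 to 1542 higher and 485 to 846 lower genes, the largest of each without replicate 3. DESeq2 called 253 genes, and edgeR called 17 to 11177 without 1 replicate. The ratio of summed MMP to summed TIMP level averaged 0.638 with trends removed and 0.891 per union of exons, where the empty vector control stood at 0.425; both settings, and the list counts under other settings, were chosen after seeing the data. Of 80 member differences recomputed under alternatives, 73 moved by no more than 1 SD between replicates, and 8 of 10 members kept their direction in all; TIMP2 and TIMP3 changed direction without replicate 3. The 7 that moved more were those of MMP14 and MMP15 with total counts or trends removed, of MMP3 with the other prior counts, and of TIMP1 with trends removed. At 0 to 15 counts, the depth limits statements on MMP1 in replicate 3, on MMP3 and on MMP10 in the empty vector control.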
